A study of Homo sapiens with 16 samples.

Results

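The 9 genes described here encode the oxygen-sensing machinery of the hypoxia-inducible factors (HIFs): the alpha subunits EPAS1 (HIF-2α) and HIF1A, their partners ARNT and ARNT2, the prolyl hydroxylases EGLN1, EGLN2 and EGLN3, the asparaginyl hydroxylase HIF1AN, and VHL. They were taken by symbol from the 63187 genes of the deposited table, and all 9 were found and passed the filter on low counts. RNA-seq was done in 4 groups of the MYCN-amplified human neuroblastoma line SK-N-BE(2), with 4 libraries each. WT is the group labelled wild type, and the 3 other groups were transfected with a form of HIF-2α: full-length (FL), or a form named for the N-CTAD (NCTAD) or the c-IDR (cIDR), which the study's design writes with a Δ before both names. All groups were grown at 21% oxygen with 10% serum. The labels give neither vector nor time after transfection, nor do they say whether WT cells received an empty vector, so transfection itself and HIF-2α cannot be told apart in a comparison with WT. The columns of the deposited tables name the line BE2c, call WT control, call FL wild type and write NCTAD as NTAD. Groups here follow the sample labels, which also number a batch, 1 to 4, that holds 1 library of each group. Nothing in the labels says that libraries of a group came from separate cultures, so p-values measure the spread between these libraries.

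A HIF is a pair of 1 alpha subunit and 1 ARNT-type subunit, which binds short DNA elements with the core ACGTG or GCGTG. Where oxygen is present, the EGLN enzymes hydroxylate prolines of the alpha subunit, VHL, the recognition subunit of an E3 ubiquitin ligase, binds the hydroxylated form, and the protein is degraded. HIF1AN hydroxylates an asparagine in the C-terminal activation domain, which blocks binding of the coactivators EP300 and CREBBP. EGLN3 and EGLN1 are themselves known HIF targets, so the sensors are part of a feedback loop, whereas EGLN2 is not usually induced by hypoxia. In neuroblastoma, HIF-2α has been linked to immature, neural crest-like cells. Most control of HIF-α is exerted on the protein, which RNA levels do not show.

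The promoters of the 3 prolyl hydroxylases are shown because the 3 paralogs differed between batches in their own ways: EGLN3 and, by less, EGLN1 were higher in batch 2, and EGLN2 in batch 1. Of the 9 members, 7 had windows in the RefSeq table, and ARNT2 and VHL had none. Each window runs from 250 bases before to 50 bases after the transcription start, 5′ to 3′ on the gene's strand, from RefSeq with build GRCh38.p14. The EGLN1 window is chr1:231422238-231422537 on the minus strand, that of EGLN2 is chr19:40798941-40799240 on the plus strand (the first of 2 listed starts), and that of EGLN3 is chr14:33951025-33951324 on the minus strand. Capitals mark ACGTG or GCGTG on either strand, including both overlapping cores of the palindrome CACGTG.
EGLN1 promoter: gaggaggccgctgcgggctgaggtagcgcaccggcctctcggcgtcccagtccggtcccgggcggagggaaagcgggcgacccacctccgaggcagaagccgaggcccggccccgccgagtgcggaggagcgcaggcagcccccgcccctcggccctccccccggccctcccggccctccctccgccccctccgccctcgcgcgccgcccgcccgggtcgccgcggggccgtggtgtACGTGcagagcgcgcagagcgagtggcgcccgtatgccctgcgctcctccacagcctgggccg
EGLN2 promoter: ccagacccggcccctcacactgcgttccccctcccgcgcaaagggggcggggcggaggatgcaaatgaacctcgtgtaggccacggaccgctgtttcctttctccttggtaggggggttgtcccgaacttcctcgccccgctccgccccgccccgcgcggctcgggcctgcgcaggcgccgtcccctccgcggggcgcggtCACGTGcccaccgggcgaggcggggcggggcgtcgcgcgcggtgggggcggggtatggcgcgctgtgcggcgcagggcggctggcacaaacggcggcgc
EGLN3 promoter: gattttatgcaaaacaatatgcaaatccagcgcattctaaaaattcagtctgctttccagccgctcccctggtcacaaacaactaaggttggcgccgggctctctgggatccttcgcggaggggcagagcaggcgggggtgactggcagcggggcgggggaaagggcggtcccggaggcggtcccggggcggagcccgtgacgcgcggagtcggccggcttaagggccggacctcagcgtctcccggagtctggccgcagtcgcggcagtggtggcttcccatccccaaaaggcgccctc
The EGLN1 window holds 1 core and the EGLN2 window holds 2, which are the overlapping readings of 1 CACGTG. The EGLN3 window holds none. Of 35116 RefSeq promoter windows of the same length, 48.4% hold the core and 7.3% hold CACGTG. The share with the core was 64.9% among the 16447 windows with at least 60% G and C, and the 3 windows above have 80.0%, 76.3% and 65.0%. These matches describe letters only. The windows of EPAS1 and of the first listed start of HIF1A hold 1 core each, and those of ARNT, of HIF1AN, of the second HIF1A start and of the second EGLN2 start hold none.

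Libraries held 38.6 to 56.1 M (mega) estimated counts, so a gene at 0 counts could be present at up to 3 counts, or 0.0812 CPM (counts per 1 M counts, with TMM-scaled totals) in the shallowest library. All 12 markers of adrenergic neuroblastoma had a median over the 16 libraries above 1 TPM (transcripts per 1 M transcripts) and summed to between 6487 and 7533 TPM per library. Summed markers of immune, endothelial, epithelial and Schwann cells reached at most 2.15, 0.556, 0.815 and 3.57 TPM, and those of fibroblasts 45.6 to 111 TPM. The summed epithelial markers ran from 0.292 to 0.411 TPM in WT and from 0.468 to 0.777 TPM in NCTAD, without overlap, and their part in the results was not tested. In these bulk libraries, more RNA in each cell and more cells with a given RNA cannot be told apart. Libraries of the same batch varied together: over all tested genes, deviations of libraries from their group means correlated with a mean r of 0.308 for 24 pairs of the same batch and −0.0945 for 72 pairs of different batches. For this reason each group comparison was fitted with group alone and, where a call changed, is also given with batch added to the model as a replicate block.

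Per unit of transcript length, HIF1A was the most abundant of the 9 genes in WT cells, at 148 ± 9.73 TPM (SD, n = 4), and ARNT2 the least, at 0.56 ± 0.0611 TPM. EGLN2 followed HIF1A at 60.9 ± 3.33 TPM, with no overlap with its neighbours. EGLN1 at 28.9 ± 2.51, EGLN3 at 23.7 ± 7.85 and VHL at 21.6 ± 2.31 TPM came next, and adjacent genes in that order overlapped. HIF1AN at 16.7 ± 1.98 and ARNT at 15.8 ± 0.766 TPM also overlapped each other. Endogenous EPAS1 stood at 6.15 ± 3.42 TPM, below ARNT and above ARNT2 in 4 of 4 WT libraries. In the transfected cells EPAS1 became the most abundant of the 9, and the order of the others was kept except that mean EGLN3 came above mean EGLN1, again with overlapping ranges.

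**Figure D1:**
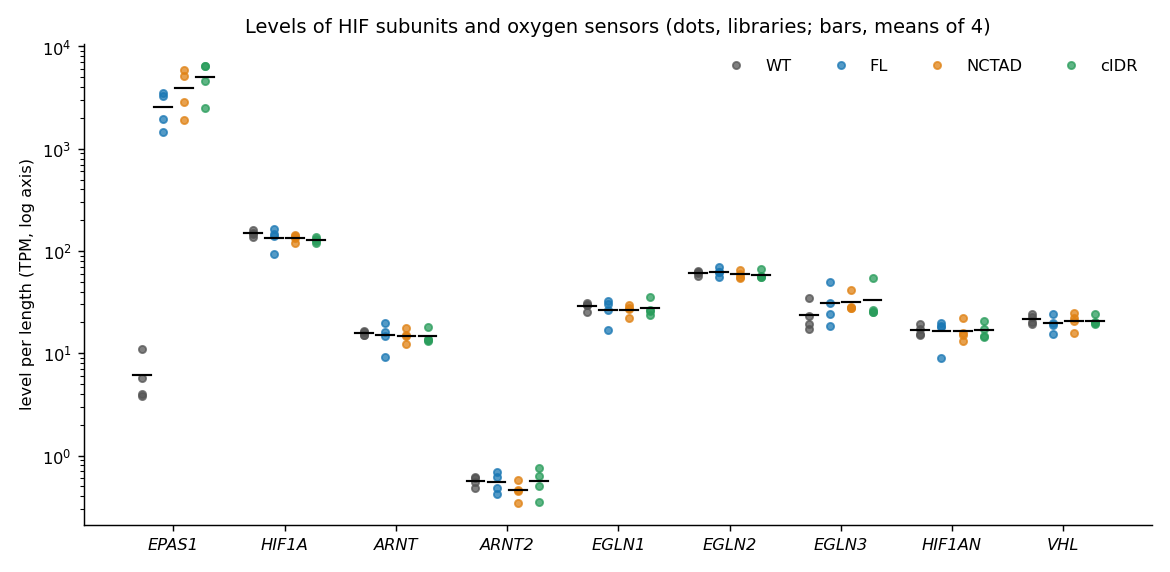
TPM per library (dots, log axis) for the 9 genes, coloured by group, with the mean of 4 libraries as a bar. EPAS1 moves from 6.15 TPM in WT to means of 2551 to 4986 TPM in the transfected groups, while the other 8 genes stay within overlapping ranges.

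EPAS1, on chromosome 2 at 46297407 to 46386697, is both a member and the gene that was transfected, so its level first checks the labels. In WT it was at 13.0, 28.1, 17.3 and 14.3 CPM in batches 1 to 4. FL libraries held 1691, 2001, 3580.4 and 3164 CPM, NCTAD libraries 2203, 1319.7, 4228 and 3655 CPM, and cIDR libraries 4078, 2189, 5852 and 5816 CPM. Every transfected library lay far above every WT library, and the transfected groups overlapped one another. Reads of the endogenous gene and of the transfected sequence are counted together, so the endogenous level in transfected cells is not known. Against WT, EPAS1 was higher by 7.16 ± 0.49 on the log2 scale (SE) in FL, 7.29 ± 0.50 in NCTAD and 7.95 ± 0.51 in cIDR (edgeR quasi-likelihood, Benjamini-Hochberg adjusted p = 3.3e-06, 2.8e-06 and 1.2e-06). Over 27 alternatives these ran from 6.79 to 8.72, 6.88 to 9.30 and 7.56 to 9.68, called in each. With group alone, EPAS1 was the only member called in each of these 3 comparisons, 1 of 9, where 0.0102% of all 19530 tested genes were called for FL, 0.0256% for NCTAD and 0.0102% for cIDR.

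The constructs were not equally abundant within a batch, although no difference between them was called. The cIDR library held more EPAS1 than the FL library in 4 of 4 batches, by 1.27, 0.13, 0.71 and 0.88 on the log2 scale, and more than the NCTAD library in 4 of 4, by 0.89, 0.73, 0.47 and 0.67. NCTAD exceeded FL in 3 batches and lay 0.60 below it in batch 2. These sizes depend on the scale. On TPM, in batches 1 to 4, cIDR exceeded NCTAD by less (0.67, 0.41, 0.11 and 0.33) and FL by more (1.65, 0.37, 0.87 and 0.97), and NCTAD differed from FL by 0.98, −0.04, 0.76 and 0.64. The fitted differences in CPM were 0.78 ± 0.38 for cIDR against FL, 0.65 ± 0.38 for cIDR against NCTAD and 0.13 ± 0.38 for NCTAD against FL, and no gene passed the threshold in any of the 3 (0.0% of genes called; unadjusted p-values under 0.05 were found for 177, 119 and 173 genes). With limma on log2(TPM + 1) the same differences were 0.97, 0.38 and 0.59, none called. No member was called with the block either, where 0.0307%, 0.00512% and 0.0% of genes were. Without batch 2 and with the block, cIDR against FL reached 0.96 ± 0.13 (edgeR adjusted p = 0.031). Comparisons of any member with the construct form therefore also compare different amounts of EPAS1 RNA, and the 2 cannot be told apart.

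The estimated count divided by TPM gives salmon's effective length for a gene, up to a factor of the library, and it was examined after the values were seen. For EPAS1 this length, relative to WT, was 0.325 ± 0.004 for FL, 0.218 ± 0.0038 for NCTAD and 0.272 ± 0.0041 for cIDR (SD, n = 4), against 0.826 to 1.14 among WT libraries. Salmon thus assigned the EPAS1 reads of the 3 transfected groups to annotated transcripts in different mixes from WT and from one another, with no overlap. Which EPAS1 transcripts the cells made was not tested. The length is that of the annotated transcripts that salmon chose, not of the constructs. TPM and CPM of EPAS1 therefore give differences of unlike size: means of FL and NCTAD were 2551 against 3959 TPM but 2609 against 2851 CPM. For the 8 other members the group mean of this relative length was between 0.881 and 1.05. Single libraries ran from 0.591 for ARNT2 in cIDR to 1.39 for HIF1AN in FL, so TPM of these genes depends on it too.

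HIF1A, the other alpha subunit, lies on chromosome 14 at 61695513 to 61748258. It stood at 385, 409, 398 and 361 CPM in WT, 239, 383, 369.6 and 406 CPM in FL, 362, 374, 364 and 370.3 CPM in NCTAD, and 357, 348, 379 and 334 CPM in cIDR. FL of batch 1 was the lowest of all 16, and the remaining 15 libraries fell between 334 and 409 CPM. FL, NCTAD and cIDR differed from WT by −0.15 ± 0.12, −0.08 ± 0.12 and −0.13 ± 0.12, none called. Without FL replicate 1 the FL value was −0.02 ± 0.06, so its size rests on that library. In cIDR the library was below WT of its batch in 4 of 4 batches, by 0.11, 0.23, 0.07 and 0.11 on the log2 scale.

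ARNT, on chromosome 1 at 150809713 to 150876599, is the constitutive partner of both alpha subunits. Its libraries lay between 37.2 and 43.0 CPM in WT, 31.6 and 43.0 in FL, 39.3 and 44.9 in NCTAD, and 37.9 and 43.5 in cIDR, again with FL of batch 1 as the lowest. The neuronal paralog ARNT2, on chromosome 15 at 80404382 to 80597933, was at 1.55 to 3.18 CPM over all libraries, or 77 to 149 estimated counts. Neither partner was called in a group comparison: differences from WT were −0.07, 0.06 and 0.00 (SE 0.09 each) for ARNT and 0.02, −0.18 and −0.16 (SE 0.24 each) for ARNT2 in FL, NCTAD and cIDR. The ratio of EPAS1 to the sum of ARNT and ARNT2 TPM was 0.37 ± 0.191 for WT. EPAS1 RNA was thus scarcer than its partners' RNA in each WT library (0.241 to 0.649) and in excess in each transfected one (96.0 to 454). The ratios of transfected libraries rest on the shortened EPAS1 length described above, which differed between constructs, so they are not compared between constructs.

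EGLN3 (PHD3), on chromosome 14 at 33924227 to 33951074, was the one other member that differed between groups in any fit. In WT it was at 28.2, 51.8, 34.9 and 30.9 CPM in batches 1 to 4. FL libraries held 34.7, 73.7, 39.5 and 43.5 CPM, NCTAD libraries 49.5, 64.3, 44.9 and 45.3 CPM, and cIDR libraries 43.2, 81.8, 44.0 and 41.8 CPM. The library of batch 2 was the highest of each group, so the groups overlapped, but within every batch each transfected library was above WT. The 3 comparisons with WT share the same 4 WT libraries. The share of all genes above WT in this way was not counted. The within-batch difference from WT, in batches 1 to 4, was 0.30, 0.51, 0.18 and 0.49 on the log2 scale for FL, 0.81, 0.31, 0.36 and 0.55 for NCTAD, and 0.61, 0.66, 0.34 and 0.44 for cIDR.

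With group alone in the model, none of these differences was called: 0.39 ± 0.26 for FL, 0.48 ± 0.27 for NCTAD and 0.53 ± 0.27 for cIDR (edgeR adjusted p of 1.0 in each). With the replicate block the SE fell to 0.09, and EGLN3 was called in NCTAD (0.51, edgeR adjusted p = 0.0196) and cIDR (0.51, edgeR adjusted p = 0.0195) but not in FL (0.38, edgeR adjusted p = 0.30). With the block 2 of 9 members were thus called in NCTAD and cIDR and 1 of 9 in FL, where 0.456%, 0.486% and 0.102% of all genes were (89, 95 and 20 genes). Those counts fell to as low as 43, 49 and 10 when WT replicate 1 was left out. Neither call held under every removal of 1 library, although the fitted difference stayed above 0 in each alternative run (0.35 to 0.70 in NCTAD and 0.24 to 0.75 in cIDR). In NCTAD the blocked call was lost without any 1 of NCTAD replicates 1, 3 and 4 and WT replicates 1, 2 and 4 (edgeR adjusted p 0.0745 to 0.135), and it was kept without batch 2 (0.56, edgeR adjusted p = 0.022, and 0.56, edgeR adjusted p = 0.029, with no block). In cIDR it was lost without any 1 of cIDR replicates 1, 2 and 3 and WT replicates 1, 2 and 4 (edgeR adjusted p 0.0659 to 0.133) and without batch 2 (0.45, edgeR adjusted p = 0.11). A difference between constructs was not called: fitted differences were 0.09, 0.14 and 0.05 (SE 0.26 each) for NCTAD against FL, cIDR against FL and cIDR against NCTAD, and the sign of each changed when 1 library was left out.

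EGLN1 (PHD2), on chromosome 1 at 231363756 to 231422287, is the main HIF prolyl hydroxylase in most cells. It was at 61.6, 71.4, 74.4 and 66.6 CPM in WT, 48.5, 80.2, 66.9 and 71.9 in FL, 67.3, 74.1, 65.7 and 68.6 in NCTAD, and 70.2, 88.1, 68.4 and 63.6 in cIDR. The lowest library was again FL of batch 1 and the highest cIDR of batch 2, and all groups overlapped. Differences from WT were −0.03, 0.01 and 0.08 (SE 0.13 each) in FL, NCTAD and cIDR, and that of FL was 0.08 without FL replicate 1.

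EGLN2 (PHD1), on chromosome 19 at 40799191 to 40808434, is the nuclear prolyl hydroxylase. It was at 88.4, 80.7, 84.5 and 78.9 CPM in WT, 107, 85.8, 79.7 and 79.4 in FL, 102, 83.4, 77.6 and 81.2 in NCTAD, and 97.4, 80.2, 80.7 and 81.0 in cIDR. Batch 1 held the highest library of each group, and differences from WT were 0.08, 0.05 and 0.03 (SE 0.11 each). Among the prolyl hydroxylases EGLN3 took 20.6 ± 4.98% (WT), 25.0 ± 7.04% (FL), 26.6 ± 3.34% (NCTAD) and 26.8 ± 7.07% (cIDR) of the summed TPM, with overlapping ranges and the highest share of each group in batch 2.

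HIF1AN (FIH), on chromosome 10 at 100535943 to 100559998, ranged over 51.4 to 67.1 CPM in the 16 libraries. VHL, on chromosome 3 at 10141778 to 10153667, ranged over 34.6 to 46.7 CPM. Their differences from WT in FL, NCTAD and cIDR were −0.03, 0.03 and 0.02 (SE 0.09 each) for HIF1AN and −0.07, 0.01 and −0.03 (SE 0.11 each) for VHL. Apart from EPAS1 and EGLN3, no member was called in any group comparison, with or without the block or under the alternatives followed. The block with a library left out was followed for members in comparisons with WT only. The sizes of the differences of these other members in the fit with group alone were at most 0.20. The median difference of the 9 members was −0.03, 0.03 and 0.02 against WT in FL, NCTAD and cIDR, and that of all tested genes was 0.01, 0.02 and 0.01.

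**Figure D2:**
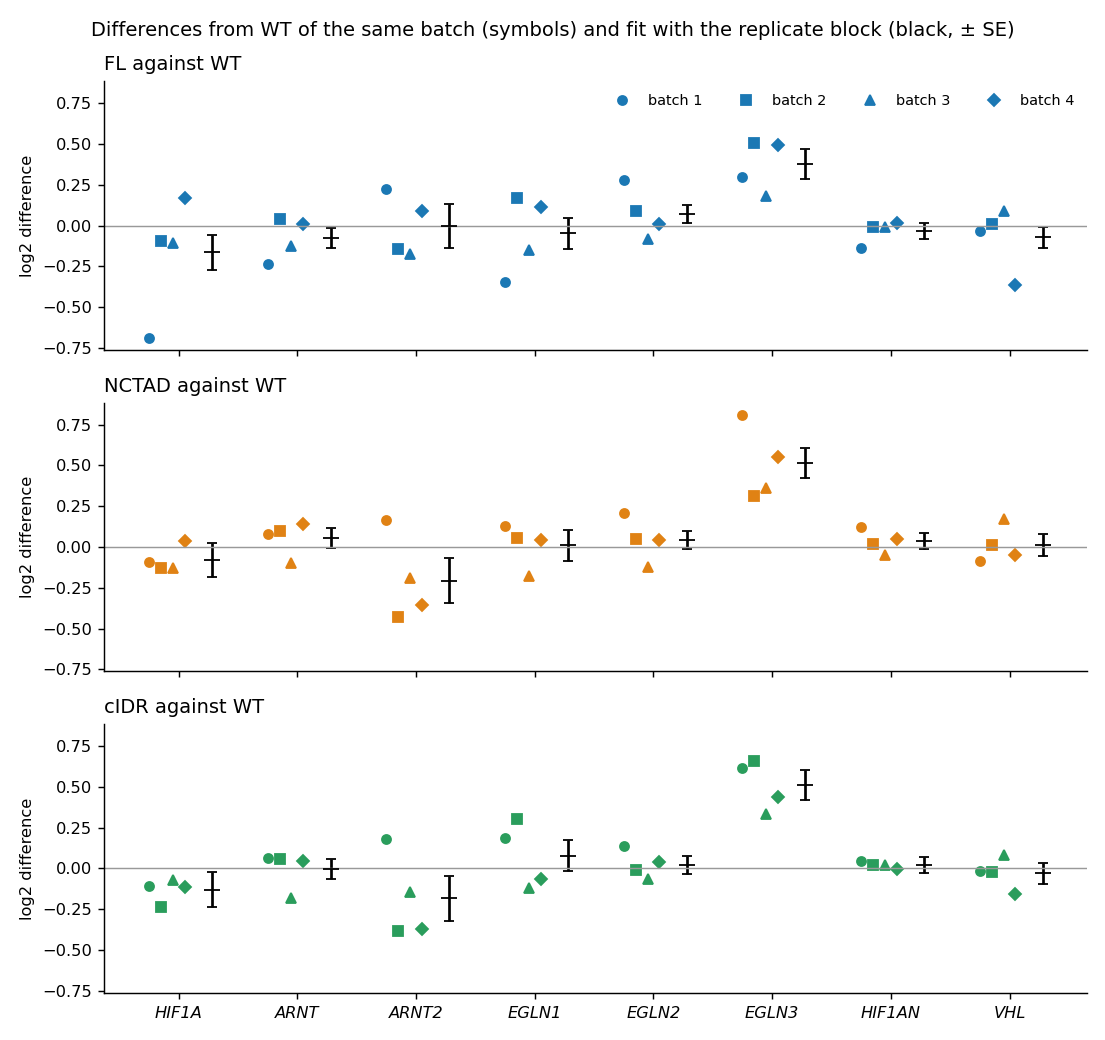
Difference in log2 CPM from the WT library of the same batch for the 8 members other than EPAS1 (symbols, batches 1 to 4), with the log2 fold change ± SE of the fit with the replicate block in black. Each WT library serves in 3 pairs. EGLN3 lies above 0 in 4 of 4 batches for each construct, from 0.18 to 0.81. The share of all genes doing so was not counted.

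In batch 2, set against the mean of batches 1, 3 and 4 with the group in the model, 6 of the 9 members were called, 5 higher and 1 lower. This has to be read against 53.9% of all genes called in this contrast, 27.7% higher and 26.1% lower (5414 and 5107 genes, or 6514 and 3928 when scaled by library totals alone). Batch 2 was singled out with earlier results of these data known, and its 4 libraries share their batch, so n is 1 batch and the tests compare its libraries with the others.

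EGLN3 had the largest difference of the 9 in this contrast over all groups, in which values of EPAS1 with opposite signs in WT and transfected cells partly cancel. It was 0.76 ± 0.07 higher on the log2 scale in batch 2 (edgeR adjusted p = 5.4e-07), with 51.8, 73.7, 64.3 and 81.8 CPM in WT, FL, NCTAD and cIDR against 28.2 to 49.5 CPM in the 12 other libraries. The 4 libraries of batch 2 were therefore the 4 highest of all 16, WT included. The rise within WT, FL, NCTAD and cIDR was 0.73, 0.91, 0.47 and 0.93. In WT cells of batch 2, EGLN3 was thus higher than in any transfected library of the other batches, and the batch difference exceeded each fitted difference between a construct and WT.

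Of the genes acting with EGLN3 on the alpha subunits, HIF1AN, VHL and EGLN1 also rose, and EGLN2 did not. HIF1AN was 0.20 ± 0.04 higher (edgeR adjusted p = 0.00053) at 65.5 to 67.1 CPM in batch 2 against 51.4 to 61.5 elsewhere, without overlap. VHL was 0.22 ± 0.05 higher (edgeR adjusted p = 0.0025), at 45.6 to 46.7 against 34.6 to 44.5 CPM, also without overlap. The share of all genes that separated batch 2 in this way was not counted. EGLN1 was 0.25 ± 0.08 higher (edgeR adjusted p = 0.013), at 71.4 to 88.1 against 48.5 to 74.4 CPM. EGLN2 was not called, at −0.06 ± 0.04 (edgeR adjusted p = 0.27), and took the opposite sign, 0.01, when scaled by library totals alone.

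Of the subunits, ARNT was 0.15 ± 0.05 higher in batch 2 (edgeR adjusted p = 0.017) and ARNT2 0.54 ± 0.12 lower (−0.54, adjusted p = 0.0012). ARNT2 was at 1.55 to 2.10 CPM in batch 2 and 2.14 to 3.18 CPM elsewhere, without overlap, so the TPM ratio of ARNT to ARNT2 was 35.0 to 51.7 in batch 2 and 14.9 to 32.9 in the other batches. HIF1A differed by 0.07 ± 0.09 (edgeR adjusted p = 0.50). The call of EGLN1 was lost without FL replicate 2 or cIDR replicate 2 (edgeR adjusted p = 0.0825 and 0.0946), and that of ARNT without either of these or NCTAD replicate 2 (0.104, 0.0659 and 0.0501). The other 4 calls were kept whichever library was left out.

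**Figure D3:**
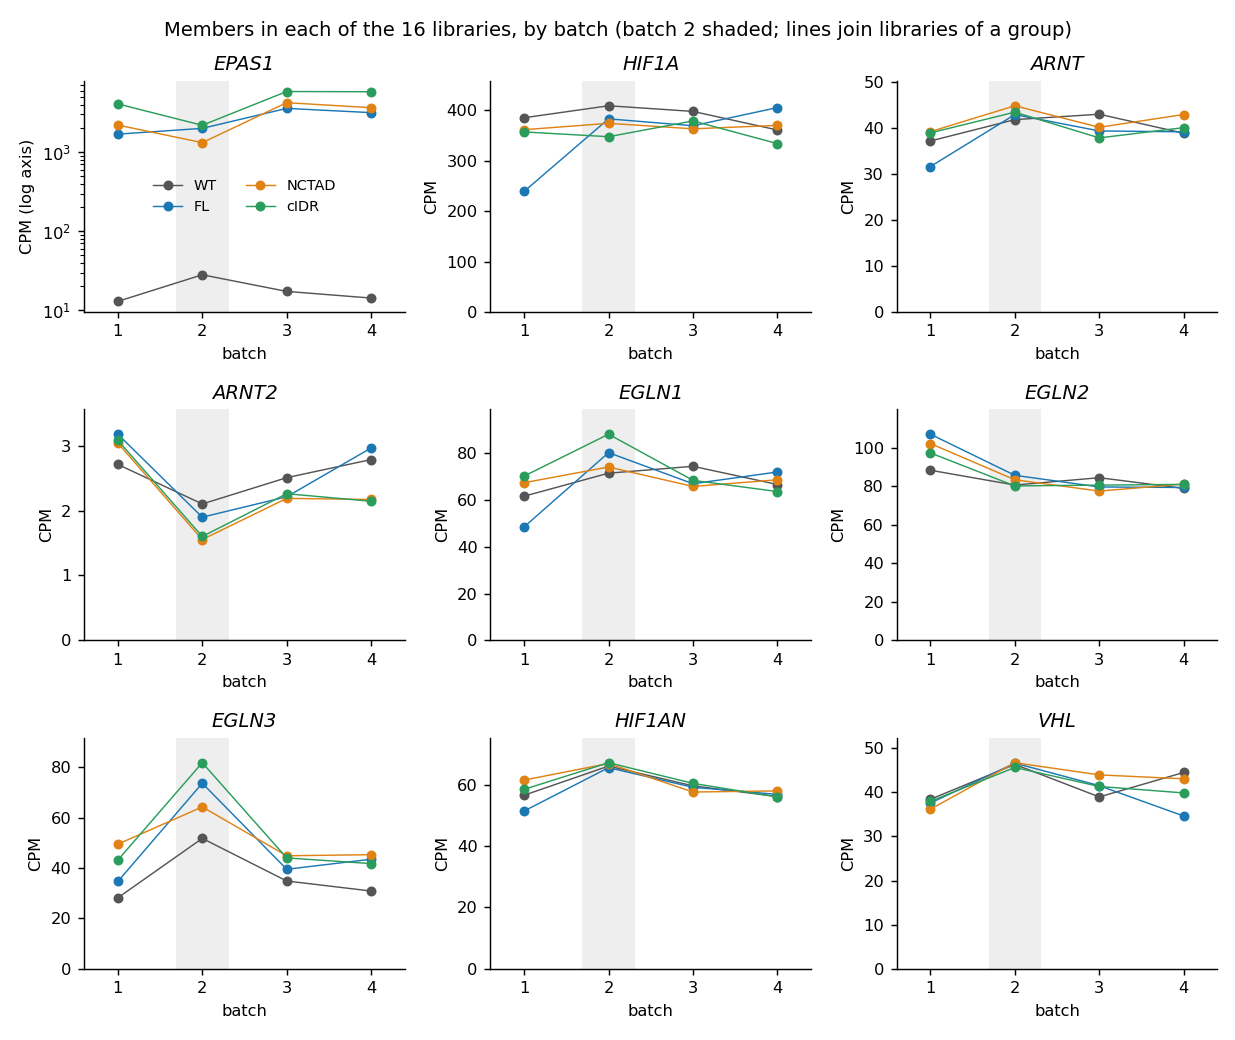
CPM of each member in the 16 libraries, by batch, with 1 line for each group, a log axis for EPAS1 and axes from 0 for the rest. In batch 2 (shaded) EGLN3 is highest in all 4 groups (51.8 to 81.8 CPM) and ARNT2 lowest (1.55 to 2.10 CPM).

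In batch 2 EPAS1 was above the 3 other batches in WT and below them in NCTAD and cIDR, while the FL library lay within the range of its group. In WT the difference from the mean of the 3 other batches was 0.93 on the log2 scale (28.1 against 13.0 to 17.3 CPM), and in FL, NCTAD and cIDR it was −0.42, −1.30 and −1.24. Over all groups the contrast was −0.45 ± 0.26 (edgeR adjusted p = 0.17). It ran from −1.01 to −0.18 over 23 alternatives and was called in 2 of them. Without the WT libraries, among these, it was −0.95 ± 0.16 (edgeR adjusted p = 0.00060). The difference itself, tested as an interaction of the pooled constructs with batch 2, was −1.89 ± 0.29 and was not called (edgeR adjusted p = 0.0998). Its WT arm in batch 2 is 1 library, which is assumed to vary like the others, so the test rests on that library under every setting. Of the 19530 genes, 0.00512% were called in this test and none of the 9 members was. EPAS1 was called in it with DESeq2 (−1.87, adjusted p = 0.0018), with no low-count filter (−1.88, edgeR adjusted p = 1.6e-05) and without FL replicate 1 or FL replicate 2 (edgeR adjusted p = 0.0318 and 0.00092). For EGLN3 the interaction was 0.05 ± 0.18, with the same limit.

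The other batches differed too. In batch 1 against the 3 others, 5 of 9 members were called, 2 higher and 3 lower, beside 24.7% of all genes, 14.9% higher and 9.77% lower. That split was 2919 and 1909 genes, or 1702 and 3073 when scaled by library totals alone, and the 4828 calls fell to 3097 without NCTAD replicate 1. EGLN2 at 0.28 ± 0.04 and ARNT2 at 0.47 ± 0.11 were higher (edgeR adjusted p = 0.00049 and 0.0061), and EGLN3 at −0.32 ± 0.08, VHL at −0.18 ± 0.05 and ARNT at −0.17 ± 0.05 were lower (edgeR adjusted p = 0.0073, 0.022 and 0.025). For EGLN3 the reference holds the high libraries of batch 2: the mean over groups was 38.9 CPM in batch 1, 40.8 in batch 3 and 40.4 in batch 4, against 67.9 in batch 2, and NCTAD of batch 1 (49.5 CPM) was above NCTAD of batches 3 and 4 (44.9 and 45.3 CPM). Batch 2 was also the reference batch farthest from batch 1 for ARNT2, VHL and ARNT. Means in batches 1 to 4 were 3.01, 1.79, 2.29 and 2.52 CPM for ARNT2 and 37.5, 46.3, 41.4 and 40.5 for VHL. For ARNT they were 36.8, 43.3, 40.1 and 40.3, with batch 1 running from 31.6 in FL to 39.3 in NCTAD. Single members were not followed with a library left out in this contrast. No member was called in batch 3, where 7.66% of genes were higher and 8.31% lower, or in batch 4, where 6.57% were higher and 6.87% lower. The split of batch 3 was 1496 higher and 1622 lower, 1195 and 1859 when scaled by library totals alone, and 369 and 967 with limma on log2(TPM + 1). The 3118 calls of batch 3 fell to 1493, 1532 and 1633 without FL, NCTAD or cIDR replicate 3, and the 2625 of batch 4 to 1499 and 1732 without NCTAD or cIDR replicate 4. These contrasts share libraries with one another and with that of batch 2.

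**Figure D4:**
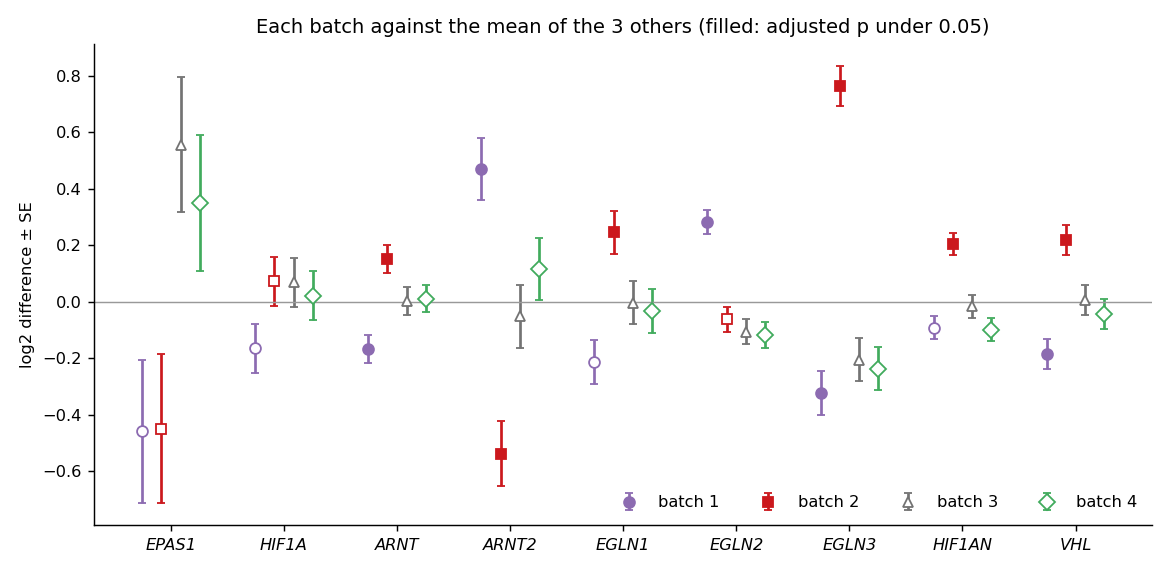
Log2 difference ± SE of each batch from the mean of the 3 others for the 9 members, filled where the edgeR adjusted p is under 0.05. Batch 2 gives the highest value of the plot, 0.76 for EGLN3, and the lowest called one, −0.54 for ARNT2.

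Whether the members followed the amount of construct RNA was asked in the 12 transfected libraries, after the mean of each batch was subtracted. Pearson's r of EPAS1 with each of the 8 others ran from −0.45 for EGLN2 to 0.44 for EGLN3 and 0.51 for EGLN1 (Spearman's rho −0.26, 0.45 and 0.43). Exact permutation of the libraries within batches, two-sided over 1296 arrangements, gave p = 0.33, 0.36 and 0.32 for these 3, and after adjustment over the 8 relations every p for r was 0.726. Without the 2 libraries farthest from the median of EPAS1, r was −0.12 for EGLN2, 0.75 for EGLN3 and 0.60 for EGLN1 (n = 10, exact permutation p = 0.76, 0.042 and 0.090; adjusted 0.979, 0.333 and 0.361). That set has only 144 arrangements, too few for any single relation to pass on its own after adjustment. Without FL replicate 1 alone, r fell to 0.18 for EGLN1 and 0.13 for EGLN3, and that of HIF1A went from 0.25 to −0.53. On log2(TPM + 1) with all 12 libraries, r was −0.67 for EGLN2 (exact permutation p = 0.034, adjusted 0.272), and that of VHL went from 0.18 to 0.71 (adjusted 0.509). The relations thus depend on single libraries and on the scale, and none passed the threshold after adjustment in any of these sets.

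**Figure D5:**
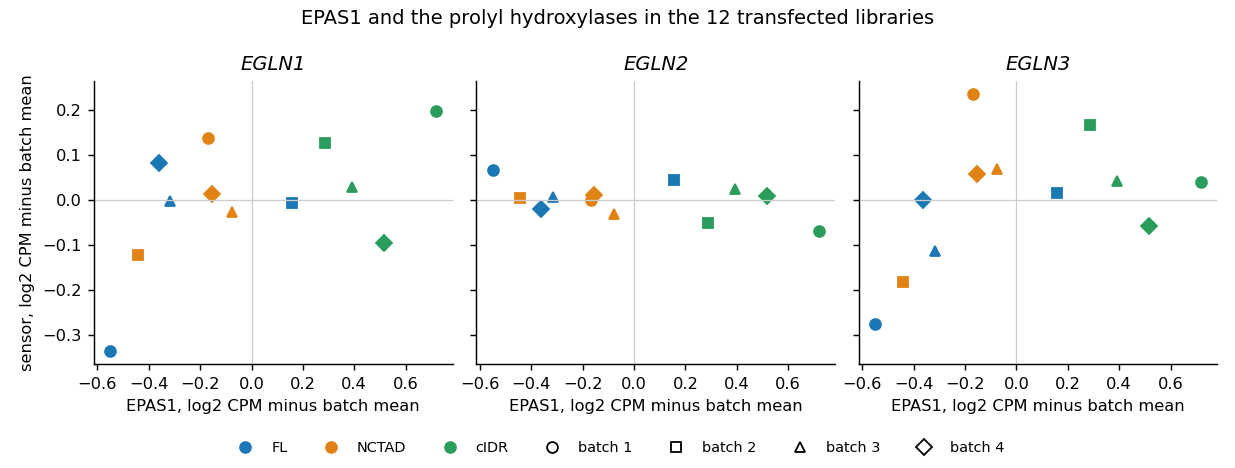
Log2 CPM of EGLN1, EGLN2 and EGLN3 against that of EPAS1 in the 12 transfected libraries, each minus its batch mean, coloured by group and with a symbol for each batch. EPAS1 spans over 1 log2 unit and no sensor follows it past the threshold (r = 0.51, −0.45 and 0.44).

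A list of 19 cofactors, ubiquitin ligase subunits and regulators (among them EP300, CREBBP, CUL2, ELOB, ELOC, RBX1, SIAH1, SIAH2 and HIF3A) had 0 genes called in every comparison between groups, with or without the block. Its median difference from WT was 0.04, 0.00 and 0.04 in FL, NCTAD and cIDR. In batch 2, 5 of the 19 were called higher and 7 lower, beside 27.7% and 26.1% of all genes, with a median of −0.05 against 0.03 for all genes. The 4 with the smallest adjusted p are named. HIF3A, the third alpha subunit gene, was higher by 3.30 ± 0.24, FKBP8, a chaperone that binds EGLN1, by 0.45 ± 0.05 and CITED2, a HIF-induced competitor for the coactivators, by 0.48 ± 0.07, and the coactivator CREBBP was lower, at −0.68 ± 0.06 (edgeR adjusted p = 3.8e-08, 2.0e-06, 3.1e-05 and 2.1e-07).

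A list of 27 genes known as HIF targets was followed in the same fits. Whether HIF activity changed them was not tested. Against WT, FL, NCTAD and cIDR had medians of 0.15, 0.18 and 0.44, with 0 of 27 called with group alone. With the block 1, 7 and 12 of 27 were called higher and 0 lower, beside 0.102%, 0.456% and 0.486% of all genes called. BHLHE40, a transcriptional repressor, was called in all 3 (0.78 ± 0.08, 0.93 ± 0.08 and 1.11 ± 0.08). VEGFA, the angiogenic factor, was called in NCTAD (1.05 ± 0.11) and cIDR (0.89 ± 0.11), with edgeR adjusted p = 0.00035 and 0.0011. In batch 2, 25 of 27 targets were called higher and 0 lower, beside 27.7% and 26.1% of all genes, with a median of 1.27 (all genes 0.03), among them PDK1 at 2.81 ± 0.08 and PFKFB4 at 2.24 ± 0.05, which both act in glucose metabolism. EGLN3 thus lay below the targets' median in batch 2, at 0.76, and above it in the blocked fits of FL (0.38 against 0.13), NCTAD (0.51 against 0.19) and cIDR (0.51 against 0.40). The targets and the members come from the same libraries.

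Some genes of the table share a locus with a member. HIF1A-AS3, a long noncoding RNA on chromosome 14 at 61715558 to 61751097, runs antisense through HIF1A. It had 0, 95, 0 and 0 estimated counts in WT, 48, 197, 18 and 20 in FL, 7, 101, 27 and 11 in NCTAD, and 52, 295, 70 and 75 in cIDR. Batch 2 held the highest library of each group, WT had counts in batch 2 alone, and FL, NCTAD and cIDR each exceeded WT in 4 of 4 batches. The contrast of batch 2 was 2.99 ± 0.47 (edgeR adjusted p = 7.5e-05), and cIDR against WT with the block was 3.48 ± 0.70 (edgeR adjusted p = 0.040), both fitted values that depend on the prior count where libraries are at 0. It was not called in that comparison with group alone (2.42 ± 1.25). Libraries were stranded per the labels, but whether counting used the strand is not given in the sources used here, so reads of HIF1A and HIF1A-AS3 may not be fully separated. HIF1A held at least 9859 counts in each library, so the antisense counts are small beside it. HIF1A-AS1, ARNT2-DT and the readthrough gene RAB4B-EGLN2 had at most 17, 15 and 12.8 counts in a library, and EGLN3-AS1 had 0 in all 16.

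Genes with the most similar pattern over the 16 libraries, by Pearson's r of log2 CPM and given as a description, were DNM2 (0.98), PAM (0.97) and SYNPO (0.97) for EGLN3, and LINC02520 (0.94), SBF2 (0.93) and GARRE1 (0.93) for EGLN1. For HIF1A they were PHF6 (0.97), KIAA2026 (0.96) and CEP170 (0.96). For EPAS1, whose own pattern is set by WT against transfected libraries, they were SLC6A19 (0.89), CD5 (0.86) and GDE1 (0.84). Among the members themselves, EGLN3 was most like HIF1AN (0.82), EGLN1 most like ARNT (0.86), and HIF1A most like ARNT (0.69). ARNT2 ran against EGLN3 (−0.72). All of these values share the 16 libraries and their 4 batches.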

How the data were processed

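Gene expression was measured in 16 poly(A)-selected, stranded RNA-seq libraries, 4 in each of 4 groups. The authors deposited estimated counts and TPM per gene from salmon, per the file headers and the submitters' processing notes, which list fastp, STAR, Salmon and featureCounts and the build GRCh38 with no versions. Trimming settings and the annotation release are not given in the sources used here. Of the counts, 15.5% were not whole, and all were rounded. Genes were filtered with filterByExpr by group (19530 kept), scaled by TMM and tested by quasi-likelihood in edgeR 4.0.16 (R 4.3.3). The group fit had group as its only term, and the batch contrast had group and batch. The interaction fit added a term for the pooled constructs in batch 2. P-values were adjusted over all tested genes by Benjamini-Hochberg, with calls at 0.05. The SE is the log2 fold change over the square root of F. CPM use TMM-scaled totals, and log2 CPM a prior count of 2. TPM was used for levels between genes.

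The numbers pair libraries through the labelled batch, and the mean correlation of deviations was 0.308 within a batch. The biological coefficient of variation was 0.245 with group alone and 0.108 with the block. Named genes were the 9 members, genes whose symbol holds a member's symbol, the 3 genes most like EPAS1, HIF1A, EGLN1 and EGLN3, and at most 4 called genes of each list. Members, lists and batch 2 were chosen with earlier results of these data known. Alternatives were the replicate block, DESeq2 size factors, library totals, no filter, DESeq2 1.42.0, limma 3.58.1 on log2(TPM + 1) and log2(TPM + 0.1), and libraries or batch 2 left out. Relative length, the block with other scalings and the block with a library left out were added after seeing the data. In group comparisons the last was followed for members against WT only. The edgeR fits with group, block, batch and interaction terms were each run on simulated data, and the DESeq2 and limma fits were not. Gene positions and promoter windows are from RefSeq, GRCh38.p14. A floor of 3 counts covers counting error only. How many of all genes kept the same sign in every batch, or held a batch apart without overlap, was not counted.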

Additional observations from a re-analysis of the deposited data

Results flagged for a closer look

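EGLN3 in the cIDR group stood out because the library of batch 2, at 81.8 CPM, was separated from the other 3 (41.8 to 44.0 CPM) by a gap of 0.944 of the group's range, above Dixon's 95% critical value for 4 libraries. EGLN2 in the cIDR group stood out in the same way, with the library of batch 1 at 97.4 CPM and the other 3 between 80.2 and 81.0 CPM, a gap of 0.954 of the range. These 2 were found among 36 sets of 4 libraries (9 members in 4 groups), and chance alone flags about 1 in 20. In both cases the library of the same batch was also the highest of its group in WT, FL and NCTAD.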

How the results depend on the processing

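With the replicate block, 2 members (EPAS1 and EGLN3) instead of 1 were called in NCTAD and in cIDR against WT. The block with DESeq2 size factors and with library totals alone also gave 2 in each. Without batch 2, NCTAD against WT had 2 with and without the block, and cIDR against FL had 1 (EPAS1) with the block. The block with 1 library left out gave 1 to 2 members in NCTAD and in cIDR against WT. Batch 2 against the others gave 4 to 7 members with 1 library left out. The interaction gave 1 member (EPAS1) with DESeq2 and with no filter, and 0 to 1 with 1 library left out. It could not be fitted without WT replicate 2. The cause of these changes was not tested.

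Over all genes, the block raised the calls against WT from 2 to 20 in FL, from 5 to 89 in NCTAD and from 2 to 95 in cIDR, and leaving out batch 2 without the block gave 10, 39 and 33. The block without batch 2 gave 16, 62 and 46, and the block with 1 library left out 10 to 23, 43 to 83 and 49 to 72. DESeq2 gave 11, 17 and 8, and 13 for the interaction (1 with edgeR). For the interaction the edgeR count also rose with no low-count filter, and without FL replicate 1, FL replicate 2 or cIDR replicate 2. Limma on log2(TPM + 1) called 1 gene in NCTAD against WT. In batch 2 the split of higher and lower calls was 5405 and 3017 with limma on log2(TPM + 1). The block changed no other member's call.

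Signs changed for uncalled differences only. EGLN2 in batch 2 was 0.011 with library totals alone. EGLN3 in cIDR against NCTAD was −0.0005 with the block, −0.0022 with the block and DESeq2 size factors, and −0.11 without batch 2, with or without the block. With 1 library left out it ranged from −0.24 to 0.18 there, from −0.040 to 0.37 in NCTAD against FL, from −0.15 to 0.42 in cIDR against FL and from −0.037 to 0.19 in the interaction. EPAS1 in NCTAD against FL ranged from −0.13 to 0.37 in the same way. Of the 42 differences of the 7 other members, 28 changed sign under some alternative, the largest of these being 0.18 in size. Depth limits ARNT2 most, at 77 to 149 counts.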
